A study of Mus musculus with 8 samples.

Results

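Rheb, the TSC proteins, the Rag GTPases with their Ragulator scaffold, and folliculin are the proteins that switch mTOR complex 1 (mTORC1) on and off, and the values of 10 genes that encode them are given here. The 10 genes were taken by gene symbol (Rheb, Tsc1, Tsc2, Tbc1d7, Rraga, Rragc, Rragd, Lamtor1, Lamtor2 and Flcn) from 19938 genes on the array, and each was read through its brightest probe set, by the average of the 8 arrays. All 10 were found, on 11 probe sets that each name 1 gene. The difference of Rheb between the groups was already known when these genes were chosen, so the choice of genes lends that difference no weight.

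Livers came from 4 adult male mice labelled RKO, for a hepatic Rictor deletion (Rictor LoxP/LoxP with Albumin-Cre), and from 4 adult male controls labelled wild type. All 8 mice were fasted for 16 h and then had free access to food for 3 h before the liver was frozen. The labels do not say whether controls carried the floxed allele or the Cre transgene. Albumin-Cre acts in hepatocytes and can also recombine in bile duct cells, whereas blood-derived and endothelial cells of the liver are not its targets and should keep Rictor, the defining subunit of mTOR complex 2. RNA was read on Affymetrix Mouse Gene 1.0 ST arrays, whose probes are spread along the transcript, and the values are log2 expression values, 1 array per mouse. A difference below is the RKO mean minus the control mean on the log2 scale, n = 4 each, with its moderated standard error (SE) and 95% interval from limma. Adjusted p-values cover the 21789 probe sets that name 1 gene. Brightness differs between probe sets for reasons other than RNA amount, so levels of different genes are not set against each other.

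mTORC1 promotes protein and lipid synthesis when growth factors and amino acids are both present. Rheb is a small GTPase that activates mTORC1 at the lysosome. The TSC complex, made of Tsc1, Tsc2 and Tbc1d7, turns Rheb off, and Akt, a kinase that mTOR complex 2 phosphorylates, relieves this brake after insulin. Amino acids act through another arm: a heterodimer of RagA or RagB with RagC or RagD, anchored to the lysosome by Ragulator, recruits mTORC1, and folliculin acts on RagC and RagD there. The comparison asks how transcripts of the refed liver depend on hepatic mTOR complex 2, and here it covers the transcripts of both arms. In whole liver, fewer cells of a type and less RNA per cell cannot be told apart.

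The sequence just upstream of the gene start is shown for Rheb and Tbc1d7, the members with the highest and the lowest difference between the groups. Both are the 250 bases before the start in RefSeq (assembly GRCm38.p6), read 5′ to 3′ on the gene's strand, with the hexamer CACGTG in capitals. CACGTG is the core of the E-box that basic helix-loop-helix factors such as TFEB, USF and the clock proteins can bind. The Rheb stretch is chr5:24842362-24842611 on the minus strand, and the Tbc1d7 stretch is chr13:43171502-43171751 on the minus strand.
Rheb: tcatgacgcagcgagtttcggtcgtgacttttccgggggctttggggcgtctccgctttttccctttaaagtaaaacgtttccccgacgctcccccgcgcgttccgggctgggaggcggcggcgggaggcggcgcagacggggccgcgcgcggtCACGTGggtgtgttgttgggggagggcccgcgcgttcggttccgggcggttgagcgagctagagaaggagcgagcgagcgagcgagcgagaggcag
Tbc1d7: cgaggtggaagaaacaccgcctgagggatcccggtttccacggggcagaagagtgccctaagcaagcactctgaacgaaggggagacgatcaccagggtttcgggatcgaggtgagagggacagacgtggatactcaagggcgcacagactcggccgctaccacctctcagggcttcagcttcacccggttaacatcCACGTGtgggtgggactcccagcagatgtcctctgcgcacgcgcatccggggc

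The hexamer lay in 4 of the 10 member windows and in 6.02% of the 32851 windows of the same length in the RefSeq table. The table gives Tsc1 and Tsc2 a start inside the gene's RefSeq span, so their windows overlap the gene itself, and the other 8 windows end at the gene's edge. Its first base stood 112 bases before the start in Rragc, 96 in Rheb, 68 in Lamtor1 and 53 in Tbc1d7. The hexamer with 10 bases on each side is shown for the 4 genes to compare its flanks, at chr4:123917311-123917336 (plus strand) in Rragc, chr5:24842442-24842467 (minus strand) in Rheb, chr7:101905759-101905784 (plus strand) in Lamtor1 and chr13:43171539-43171564 (minus strand) in Tbc1d7.
Rragc: tgattccgggCACGTGatagtaccac
Rheb: cgcgcgcggtCACGTGggtgtgttgt
Lamtor1: gccttcctatCACGTGccgcgggtcc
Tbc1d7: ggttaacatcCACGTGtgggtgggac

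The longer form TCACGTG, searched on both strands and always overlapping the hexamer, lay in 3 member windows (Rragc, Rheb and Lamtor1) and in 3.13% of all windows. The motif GTAAACA, which FoxO factors can bind, lay in 0 of the 10 windows on either strand and in 3.17% of all windows. The member windows were between 52.0% and 68.0% G and C, against a median of 52.4% over all windows. The shares over all windows were not matched to the members in G and C or in expression. Whether the members hold the hexamer more often than like windows was not tested. A match describes these letters and is not a measured binding site.

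The Rictor probe set read 9.15, 9.51, 9.68 and 9.47 on the RKO arrays and 9.47, 9.28, 9.23 and 9.64 on the control arrays, a difference of 0.05 (95% interval -0.23 to 0.32). The groups overlapped. The exons under this probe set are not known here, so it does not check the labels, on which every direction below rests. Array 1 of each group, called RKO 1 and control 1 here, lay away from its own group. On the first principal component (35.8% of the variance) RKO 2 to 4 lay between 0.410 and 0.458 and RKO 1 at -0.310, whereas controls 2 to 4 lay between -0.344 and -0.298 and control 1 at -0.0293. Igfbp1, a transcript that insulin represses, read 7.76 on RKO 1 and 9.65 to 10.10 on the other 3, against 10.04 on control 1 and 7.29 to 7.40 on the other 3 controls. Pck1, which insulin also represses, read 12.93 on RKO 1 and 13.47 to 13.73 on the other 3. It read 13.07 on control 1 and 12.67 to 12.90 on the other 3 controls. Control 1 lay 2.71 above the mean of the other controls in Igfbp1 and 0.28 above it in Pck1. The hepatocyte markers were among the brightest probe sets in every liver, with a mean over 5 genes of 14.06 to 14.09 on RKO arrays and 14.02 to 14.07 on controls. The mean of 6 Kupffer cell and macrophage markers was 9.17 to 10.22 on RKO arrays and 8.96 to 9.70 on controls, with 5 of 6 higher in mean and 1 at an unadjusted limma p under 0.05. The mean of 4 T, B and NK cell markers was 6.17 to 6.46 on RKO arrays and 6.23 to 6.71 on controls, with 0 of 4 higher in mean and 1 at an unadjusted limma p under 0.05. The mean of 4 cholangiocyte markers was 7.36 to 7.82 on RKO arrays and 7.46 to 7.90 on controls, with 2 of 4 higher and 1 at an unadjusted limma p under 0.05. No marker of hepatocytes or of the other 6 cell types read (sinusoidal endothelium, stellate cells, neutrophils, erythroid cells, adipocytes and pancreas) had an unadjusted limma p under 0.05. The part of these cells in the results below was not tested.

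Of the 10 genes 7 were higher and 3 lower in mean in RKO livers, and none passed the correction over all probe sets. The mean was higher in 43.1% and lower in 56.9% of all genes. In the same limma fit 0 of 19938 genes passed (0.0%), with a smallest adjusted p of 0.140, while 2084 (10.5%) had an unadjusted p under 0.05. Of those, 766 (3.84%) were higher and 1318 (6.61%) lower. Among the members 2 had an unadjusted p under 0.05, Rheb and Rraga, both with a higher mean. The median difference was 0.098 over the 10 genes and -0.020 over all genes. Each member was tested alone by exact permutation of the 8 arrays as well (two-sided), where the design can reach p = 0.0286 at the least.

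**Figure D1:**
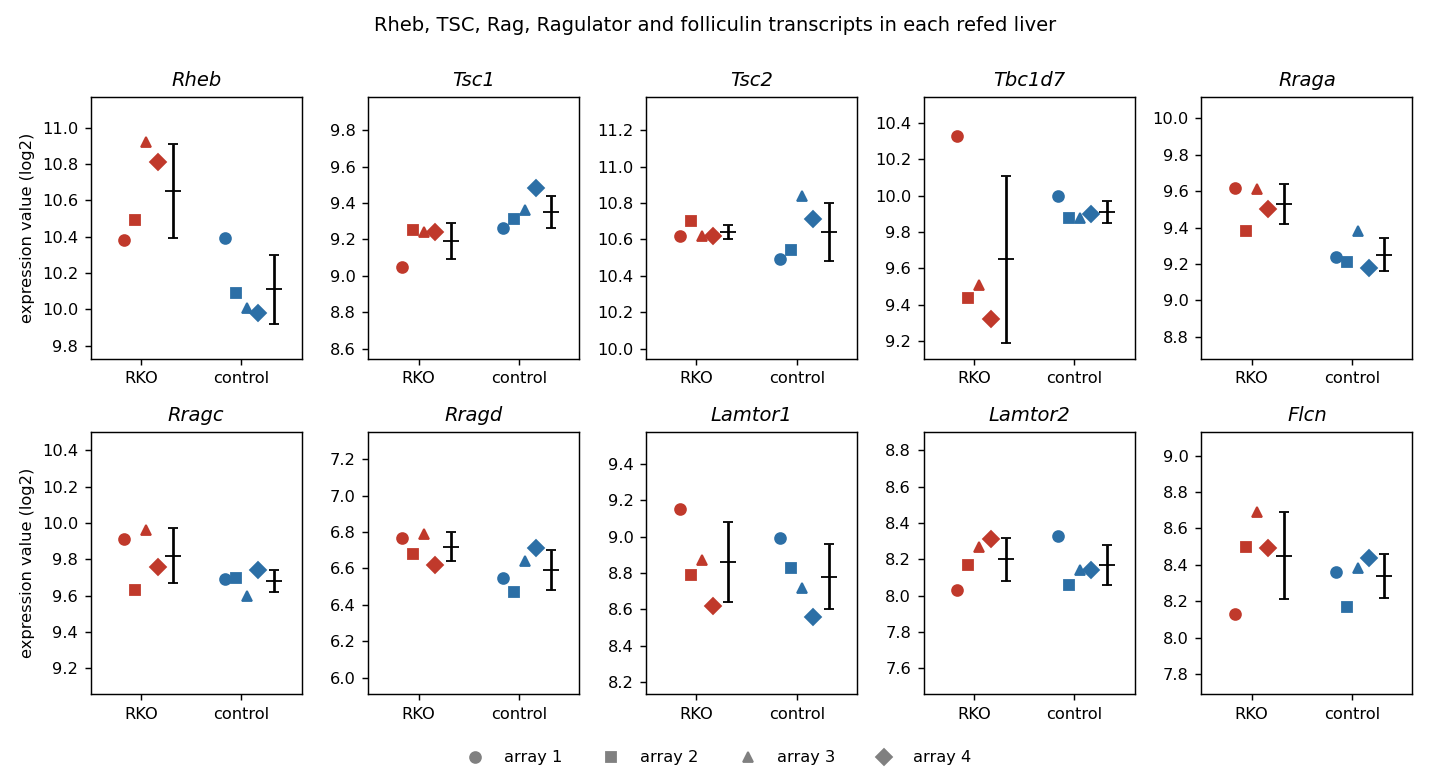
Log2 expression value of each of the 10 genes on every array, 1 panel per gene, with RKO arrays in red on the left and controls in blue on the right. Marker shape gives the array number, the bar gives mean ± SD (n = 4), and every panel spans the same number of log2 units. Rheb is lowest on array 1 among the RKO arrays (10.38) and highest on array 1 among the controls (10.39), and Tbc1d7 reads 10.33 on RKO 1 and 9.32 to 9.51 on the other 3.

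Rheb had the largest difference of the 10 genes. It read 10.38, 10.49, 10.92 and 10.81 on the RKO arrays, against 10.39, 10.09, 10.01 and 9.98 on the controls. RKO 1 lay 0.004 below control 1, and the other 3 RKO arrays lay above every control. Mean expression was 10.65 ± 0.26 on RKO arrays and 10.11 ± 0.19 on controls (SD, n = 4 each). The difference was 0.54 (SE 0.13, 95% interval 0.24 to 0.83), that is 1.45-fold with an interval from 1.18 to 1.77. It did not pass (limma adjusted p = 0.188, unadjusted p = 0.00173, exact permutation p = 0.0571).

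The call on Rheb depended on how array 1 of each group was treated. RKO 1 lay 0.36 below the mean of the other RKO arrays, and control 1 lay 0.36 above that of the other controls. Rheb passed when limma estimated a weight for each array (0.64, limma adjusted p = 0.0150), where RKO 1 had the lowest weight, 0.467. The weight of control 1, 0.827, was near that of control 3 (0.83) and above that of RKO 2 (0.672). Rheb also passed without RKO 1 (0.62, limma adjusted p = 0.0193) and without RKO 1 and control 1 (0.71, limma adjusted p = 0.00224). Without control 1 alone it did not (0.63, limma adjusted p = 0.0589). Over its 17 alternatives the adjusted p ran from 0.00224 to 0.600 and the difference from 0.45 to 0.71. These fits called other genes too. With array weights 1.31% of all genes passed as higher and 2.23% as lower, and without RKO 1 the shares were 1.1% and 3.3%. They were 0.231% and 0.0652% without control 1, and 2.39% and 5.08% without RKO 1 and control 1. Array 1 of each group was left out knowing that it lay away from the rest, so these p-values are not separate tests of Rheb.

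The 3 TSC complex genes were each lower in mean in RKO livers, Tsc2 by a difference too near 0 to settle its sign, and none passed. Tsc1, which encodes the scaffold subunit hamartin, read 9.05, 9.25, 9.24 and 9.24 on the RKO arrays and 9.26, 9.31, 9.36 and 9.48 on the controls. No RKO value reached the lowest control, but the margin was 0.006. The difference was -0.16 (SE 0.09, 95% interval -0.36 to 0.04), which did not pass (limma adjusted p = 0.576), and the exact permutation p was 0.0286, the smallest the design allows. Groups that did not overlap, with the RKO arrays lower, were found in 2.61% of all genes.

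Tsc2 encodes tuberin, the subunit whose GTPase-activating domain acts on Rheb. It read 10.62, 10.70, 10.62 and 10.62 on the RKO arrays, against 10.49, 10.54, 10.84 and 10.71 on the controls. The RKO values all fell inside the range of the controls. The 95% interval of the difference ran from -0.21 to 0.20 (limma adjusted p = 0.996), so these arrays bound a difference of Tsc2 to between 0.865-fold and 1.15-fold.

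Tbc1d7, the third subunit, which stabilises the Tsc1-Tsc2 complex, gave the widest spread of the 10 genes. It read 10.33, 9.44, 9.51 and 9.32 on the RKO arrays and 9.996, 9.88, 9.88 and 9.90 on the controls. RKO 2 to 4 lay below every control, and array 1 lay above every control, 0.90 above the mean of the rest of its group. The SD was 0.46 on RKO arrays and 0.06 on controls. With all 8 arrays the difference was -0.27 (SE 0.18, 95% interval -0.65 to 0.12, limma adjusted p = 0.635). Without RKO 1 it was -0.49 (limma adjusted p = 0.0127), and without RKO 1 and control 1 it was -0.46 (limma adjusted p = 0.0100). Both fits left out the only RKO array that lay above the controls, so, as for Rheb, their p-values are not separate tests. With array weights Tbc1d7 did not pass (-0.38, limma adjusted p = 0.132). Over its 17 alternatives the adjusted p ran from 0.0100 to 0.886 and the difference from -0.49 to -0.16. The shares of all genes that passed as lower in the 2 fits without RKO 1, given above, were 3.3% and 5.08%.

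**Figure D2:**
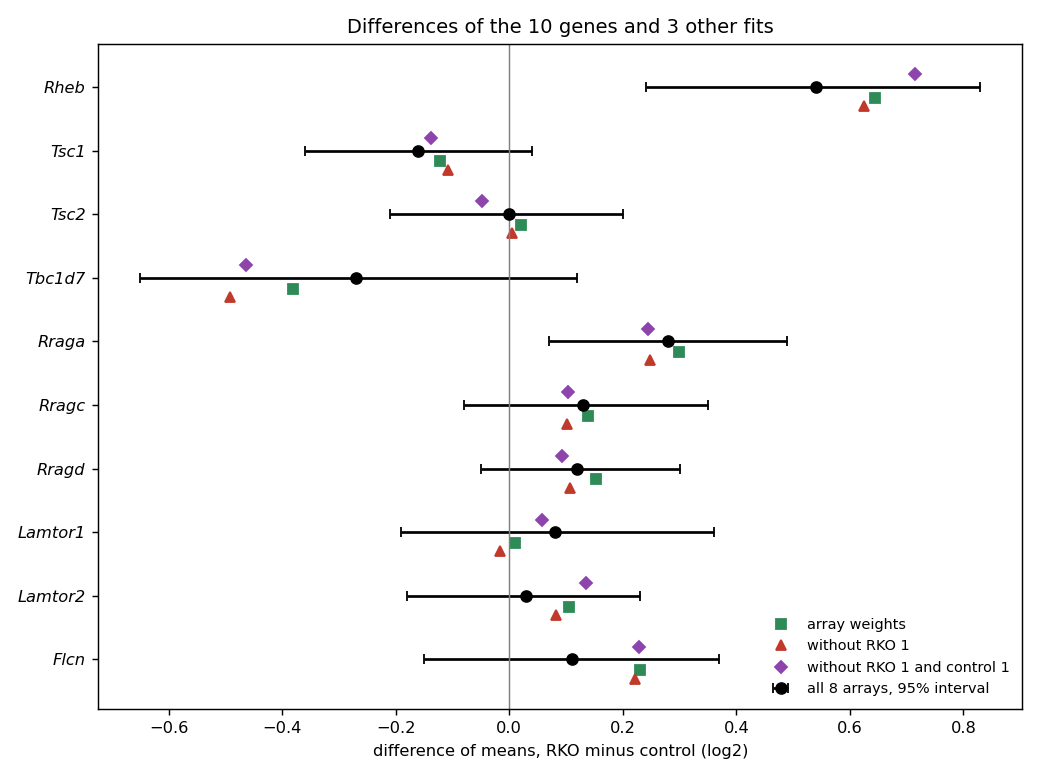
Difference of means of each gene, RKO minus control, on the log2 scale. Black points with bars are all 8 arrays with the 95% interval, green squares use array weights, red triangles leave out RKO 1, and purple diamonds leave out RKO 1 and control 1. The intervals of Rheb (0.24 to 0.83) and Rraga (0.07 to 0.49) lie above 0, and the values of Tbc1d7 lie between -0.49 and -0.27.

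The 3 Rag GTPase genes were each higher in mean in RKO livers, and none passed. Rraga, which encodes RagA, read 9.62, 9.38, 9.61 and 9.50 on the RKO arrays, against 9.24, 9.21, 9.38 and 9.18 on the controls. The groups did not overlap, but the margin was 0.004, between RKO 2 and control 3. The difference was 0.28 (SE 0.09, 95% interval 0.07 to 0.49), or 1.21-fold (limma adjusted p = 0.313, unadjusted p = 0.0115, exact permutation p = 0.0286). Groups that did not overlap, with the RKO arrays higher, were found in 1.81% of all genes. Rraga did not follow the first principal component: RKO 1 was the highest of its group, and without RKO 1 and control 1 the difference was 0.24 (limma adjusted p = 0.200). Its adjusted p ran from 0.0653, with array weights, to 0.734 over 17 alternatives, so it passed in none.

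Rragc, which encodes RagC, the partner that folliculin acts on, read 9.91, 9.63, 9.96 and 9.76 on the RKO arrays and 9.69, 9.70, 9.60 and 9.74 on the controls. Of the RKO arrays 3 were above every control and array 2 lay within the controls. The difference was 0.13 (95% interval -0.08 to 0.35, limma adjusted p = 0.669). Rragd, which encodes RagD, is a transcriptional target of TFEB and its relatives. It read 6.77, 6.68, 6.79 and 6.62 on the RKO arrays, against 6.55, 6.47, 6.64 and 6.71 on the controls. The groups overlapped, with a difference of 0.12 (95% interval -0.05 to 0.30, limma adjusted p = 0.612). The Rragd probe set was the dimmest of the 10, at the 44.2 percentile of all probe sets, where differences are compressed.

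Both Ragulator genes overlapped between the groups. Lamtor1 encodes the lipid-anchored subunit that holds Ragulator on the lysosome. It read 9.15, 8.79, 8.87 and 8.62 on the RKO arrays, against 8.99, 8.83, 8.72 and 8.56 on the controls. Array 1 was the highest of its group on both sides. The difference was 0.08 (95% interval -0.19 to 0.36, limma adjusted p = 0.867). Lamtor1 has a second, slightly dimmer probe set, which read 9.14, 8.76, 8.90 and 8.71 on the RKO arrays and 8.79, 8.64, 8.78 and 8.54 on the controls. It gave 0.19 (95% interval -0.05 to 0.43, limma adjusted p = 0.562), so neither passed and the size of the difference is not settled between them. Lamtor2, a roadblock-fold subunit of the same scaffold, read 8.03, 8.17, 8.27 and 8.31 on the RKO arrays and 8.33, 8.06, 8.14 and 8.14 on the controls. The difference was 0.03 (95% interval -0.18 to 0.23, limma adjusted p = 0.947).

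Flcn encodes folliculin, the GTPase-activating protein for RagC and RagD. It read 8.13, 8.50, 8.69 and 8.49 on the RKO arrays, against 8.36, 8.17, 8.38 and 8.44 on the controls. RKO 2 to 4 lay above every control and array 1 below every control. The difference was 0.11 (95% interval -0.15 to 0.37, limma adjusted p = 0.790), and 0.23 without RKO 1 and control 1 (limma adjusted p = 0.261).

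Array 1 did not lie on the same side in all members. RKO 1 was the lowest of its group in 4 members (Rheb, Tsc1, Lamtor2 and Flcn) and the highest in 3 (Tbc1d7, Rraga and Lamtor1). In 2 members, Rheb and Tsc2, it lay within the range of the controls. Without RKO 1 and control 1 the groups did not overlap in 6 members, with Rheb, Rraga, Lamtor2 and Flcn higher and Tsc1 and Tbc1d7 lower. With 3 arrays against 3, groups that do not overlap were found in 9.15% of all genes with higher and 15.6% with lower values on the RKO arrays.

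Genes were ranked by how closely their 8 values followed those of Rheb, by Pearson correlation over the 8 arrays. Symbols of predicted or unnamed gene models, microRNAs, mitochondrially encoded genes and pseudogenes were left out. The closest of the rest were Inpp1 (0.981), Psma7 (0.978), Snord33 (0.977), Ptges3 (0.976) and Rpl8 (0.975). Inpp1 encodes an inositol polyphosphate phosphatase, Psma7 a proteasome subunit, Snord33 a small nucleolar RNA, Ptges3 the Hsp90 co-chaperone p23 and Rpl8 a ribosomal protein. After the group means were taken away, the correlations with Rheb were 0.924 to 0.962. Genes picked for so high a correlation over the 8 arrays have little room for a low one within groups. The values within groups therefore lend the likeness no separate weight. Like Rheb, Psma7 was highest on RKO 3 (9.60, 9.83, 10.25 and 10.02) and on array 1 of the controls (9.70, 9.32, 9.43 and 9.23). The 8 points share the group difference and the arrays that stand apart, and these genes were picked from all genes as the closest, so the correlations describe these arrays. None of the 5 passed (limma adjusted p from 0.140 for Snord33 to 0.271 for Inpp1).

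**Figure D3:**
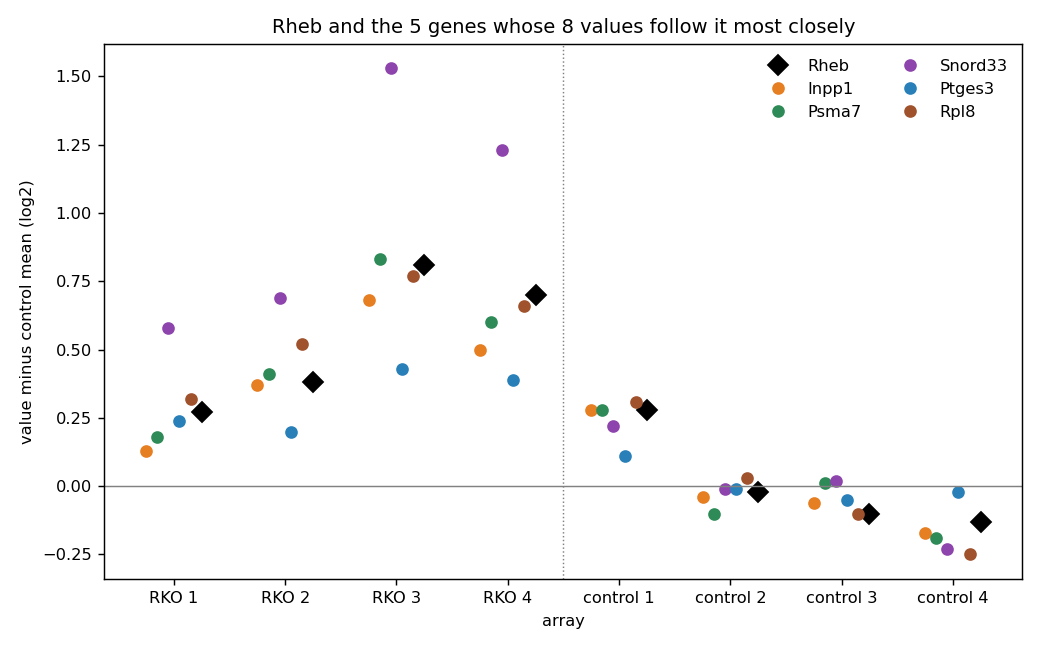
Value of Rheb (black diamonds) and of the 5 genes with the highest Pearson correlation with it, predicted and unnamed gene models and similar symbols left out. Values are given on each array, minus the gene's control mean, on the log2 scale. RKO arrays are left of the dotted line and controls right of it. All 6 genes are highest on RKO 3 and, among the controls, on array 1.

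Other genes of the pathway were read from lists drawn up from general knowledge, and in the fit with all 8 arrays none of their members passed in either direction. Some passed in fits that weighted or left out arrays. Of all genes 1.31% passed as higher and 2.23% as lower with array weights. The shares were 1.1% and 3.3% without RKO 1, and 2.39% and 5.08% without RKO 1 and control 1. As for Rheb, p-values from fits without array 1 are not separate tests. In the amino acid arm beyond the members above (RagB, the rest of Ragulator, the folliculin partners, GATOR, KICSTOR and the amino acid sensors), 23 of 25 genes were measured, 11 with a higher and 12 with a lower mean, and the median difference was -0.007. Sesn2, a leucine sensor that also responds to stress, read 7.68, 8.25, 8.28 and 7.88 on the RKO arrays and 8.003, 7.43, 7.71 and 7.63 on the controls. It differed by 0.33 (SE 0.15, limma adjusted p = 0.449) and passed without RKO 1 and control 1 (0.55, limma adjusted p = 0.0165). Rragb, the paralog of Rraga, differed by 0.22 (SE 0.10, limma adjusted p = 0.457) on a dim probe set, Lamtor3 by -0.14 and Bmt2, which encodes the sensor SAMTOR, by -0.15.

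Of the kinases and other inputs to TSC and Rheb, 11 of 12 genes were measured, 2 higher and 9 lower in mean, with a median of -0.055. Akt2, the main Akt isoform of insulin signalling in liver, differed by -0.22 (SE 0.10, limma adjusted p = 0.432). Prkaa1, a catalytic subunit of AMPK, which phosphorylates Tsc2, differed by -0.24 (SE 0.11, limma adjusted p = 0.431). Rps6ka3, an RSK kinase, differed by 0.23 (SE 0.10, limma adjusted p = 0.438), and Prkaa2 by 0.03. Rhebl1, the paralog of Rheb, differed by -0.06.

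All 7 listed mTORC1 subunit and assembly genes were measured, 4 higher and 3 lower, with a median of 0.033. Mlst8, a subunit of both mTOR complexes, read 8.92, 8.55, 8.49 and 8.47 on the RKO arrays and 8.71, 8.96, 9.04 and 8.89 on the controls. Its difference was -0.29 (SE 0.12, limma adjusted p = 0.392), and it passed without RKO 1 (-0.40, limma adjusted p = 0.0438) and without RKO 1 and control 1 (-0.46, limma adjusted p = 0.0107). Tti1, an assembly factor, differed by -0.23 and passed without RKO 1 and control 1 (-0.37, limma adjusted p = 0.0435). Mtor differed by 0.15 and Telo2 by 0.13.

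Of 13 mTORC1 substrate genes 12 were measured, 5 higher and 7 lower, with a median of -0.065. Atg13, which encodes an autophagy initiation factor, read 11.93, 11.36, 11.33 and 11.19 on the RKO arrays and 11.71, 11.79, 12.00 and 11.81 on the controls. As in Tbc1d7, RKO 2 to 4 lay below every control and RKO 1 was the highest of its group. Unlike in Tbc1d7, RKO 1 lay within the range of the controls. Atg13 differed by -0.38 (SE 0.14, limma adjusted p = 0.353). Array weights gave -0.47 and leaving out RKO 1 gave -0.54, and both passed (limma adjusted p = 0.0381 and 0.00849). So did the fit on arrays 2 to 4 (-0.58, limma adjusted p = 0.00184). Lpin1, a phosphatidate phosphatase, read 9.12, 10.98, 10.41 and 10.71 on the RKO arrays and 9.84, 9.70, 10.18 and 9.86 on the controls, and differed by 0.41 (SE 0.30, limma adjusted p = 0.675). It passed without RKO 1 (0.80, limma adjusted p = 0.0117) and without RKO 1 and control 1 (0.79, limma adjusted p = 0.0064). Rps6kb2, an S6 kinase, was lower on all 4 RKO arrays (9.37, 9.43, 9.26 and 9.31) than on all 4 controls (9.52, 9.65, 9.64 and 9.57), a difference of -0.26 (SE 0.09, limma adjusted p = 0.316). It was the 1 substrate gene of 12 whose groups did not overlap, and 2.61% of all genes were lower in that way. Eif4ebp1, the translation repressor 4E-BP1, differed by 0.31 (SE 0.15, limma adjusted p = 0.475) and passed without RKO 1 and control 1 (0.52, limma adjusted p = 0.0139).

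Of 16 lysosomal genes that TFEB and its relatives are known to drive, 14 were measured, 8 higher and 6 lower, with a median of 0.061. The cathepsin genes went both ways in mean: Ctsd differed by 0.22 (SE 0.08, limma adjusted p = 0.351), with the groups not overlapping, whereas Ctsb differed by -0.18 (SE 0.08, limma adjusted p = 0.449) and Ctsa by -0.15 (SE 0.07, limma adjusted p = 0.471). Lamp1 differed by 0.11 (SE 0.06, limma adjusted p = 0.584), and its groups did not overlap either. Such groups, with the RKO arrays higher, were found in 2 of the 14 genes and in 1.81% of all genes. Hexa, a lysosomal hexosaminidase subunit, differed by 0.31 (SE 0.14, limma adjusted p = 0.471). Without RKO 1 and control 1, Ctsb and Gla, which encodes a lysosomal galactosidase, passed as lower (-0.25 and -0.39, limma adjusted p = 0.0447 and 0.0437).

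**Figure D4:**
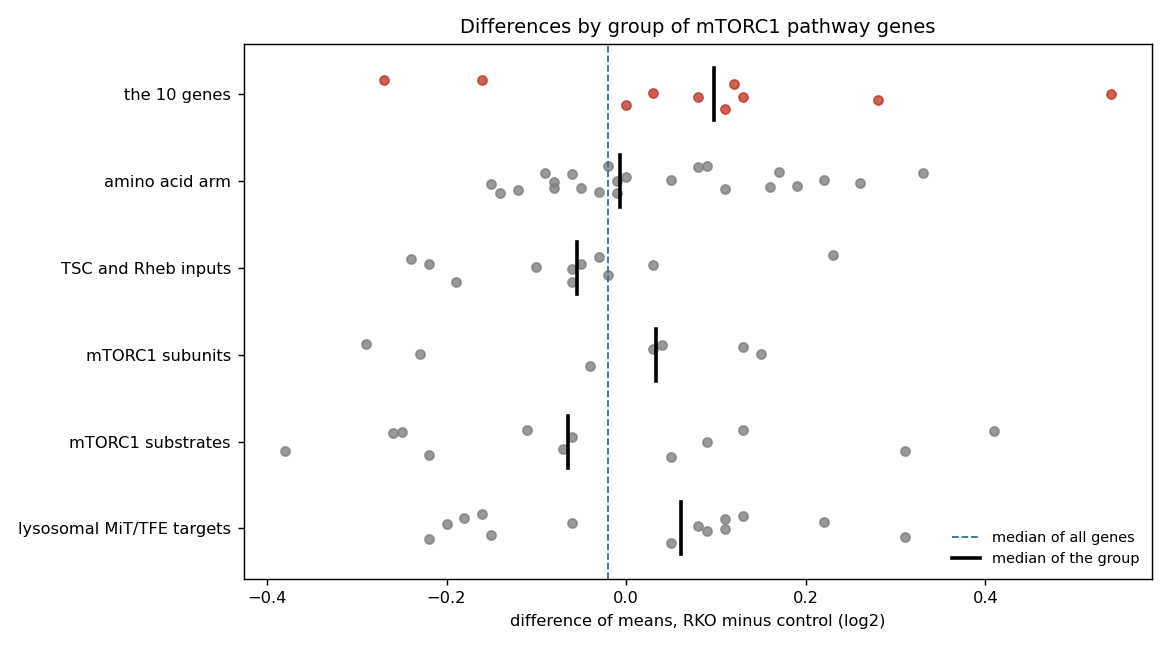
Difference of means of each gene, RKO minus control (log2), for the 10 genes (red) and 5 other groups of mTORC1 pathway genes (grey), all 8 arrays. Black bars are group medians and the dashed line is the median of all genes (-0.020), and the position within a row carries no value. Rheb, at 0.54, is the highest point of the plot, and the group medians lie between -0.065 and 0.098.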

How the data were processed

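The table holds 35556 probe sets on 8 arrays. As deposited by the authors, the values were read as log2: they run from 2.17 to 14.6 and the submitters' processing notes name RMA, Affymetrix Expression Console and Partek with no version or order. RMA makes the arrays alike, so a shift common to most genes is hidden, and it compresses differences at low brightness.

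Probe sets were named by the platform annotation, with symbols updated by Entrez identifier against RefSeq (GRCm38.p6): 21789 had 1 gene symbol (21698 matched), 1621 several and 12146 none. The array's genome build is not stated in the labels. Each of 19938 genes was counted by its brightest probe set.

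Groups were compared with limma 3.58.1 in R 4.3.3 (lmFit, eBayes with a mean-variance trend, two-sided, Benjamini-Hochberg over 21789 probe sets, threshold 0.05). The fit was tested on simulated data with independent noise for each gene. These held no array set apart from its group, so the test does not cover calls that turned on array 1. The number of arrays limits precision. The members and lists were chosen with earlier results of these data known. Genes named from a list are those with the smallest p, 2 in each direction, plus any that passed in an alternative. Rhebl1 and Lamp1 were named after their values were seen. Same-numbered arrays did not deviate together (correlations -0.0930, -0.125, -0.0400 and 0.0738), so numbers were not treated as pairs. Array correlations ran from 0.991 to 0.996. Alternatives covered weights, variance prior, normalization, filtering, block and left-out arrays.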

Additional observations from a re-analysis of the deposited data

Results flagged for a closer look

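Among 26 sets of 4 arrays examined (the 10 genes, Rictor, Igfbp1 and Pck1 in each group), 3 held an array far from the other 3 of its group. Chance flags about 1 in 20 such sets. Tsc1 read 9.05 on RKO 1, against 9.24 to 9.25 on the other 3. Tsc2 read 10.70 on RKO 2 and 10.62 on the other 3, a gap that stands out because those 3 values are nearly equal. Igfbp1 read 10.04 on control 1, against 7.29 to 7.40 on the other 3 controls.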

How the results depend on the processing

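The number of genes that passed depended on array 1 of each group. With all 8 arrays at equal weights 0 genes passed. With array weights 262 higher and 445 lower genes passed, and without RKO 1 and control 1 the counts were 476 and 1013, a fit added with earlier results known. Leaving out single arrays gave 0 to 219 higher and 0 to 658 lower genes, the highest counts without RKO 1, and 46 higher and 13 lower without control 1. Of the members, 1 higher (Rheb) passed with array weights, and 1 higher (Rheb) and 1 lower (Tbc1d7) without RKO 1 and control 1, with 0 to 1 in each direction without single arrays. Rheb stood at 0.64 with array weights and 0.71 without RKO 1 and control 1, and from 0.45 to 0.63 without single arrays. Without both arrays 1 of 23 genes of the amino acid arm, 0 of 11 inputs to TSC and Rheb and 2 of 7 mTORC1 subunit or assembly genes passed. So did 4 of 12 substrates (Atg13, Lpin1, Eif4ebp1 and Grb10) and 2 of 14 lysosomal genes. In that fit 2.39% of all genes passed as higher and 5.08% as lower. With array weights 1 substrate passed, where 1.31% of all genes passed as higher and 2.23% as lower. Without single arrays 0 to 1 subunit genes and 0 to 2 substrates passed. The highest of these counts came without RKO 1, where the shares were 1.1% and 3.3%. Other normalizations, variance priors, probe set filters and the replicate block called no member. With the replicate block Rheb stayed at 0.54 (limma adjusted p = 0.327), and the block changed no call.

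Differences near 0 changed sign. Tsc2 was 0.021 with array weights, 0.0056 after quantile normalization and 0.015 after median centring, and -0.054 to 0.063 without single arrays. Without single arrays Lamtor1 ran from -0.016 to 0.16, Lamtor2 from -0.0088 to 0.082 and Rictor from -0.030 to 0.15. The cause was not tested. Tsc2, Lamtor1 and Lamtor2 therefore have no settled direction. Rragd, a dim probe set, was left out by the filter on brightness.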
